A study of Mus musculus with 2 samples.

Results

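Chemokines and acute inflammatory secreted genes were followed in a line of adult murine mesenchymal stem cells without Dicer and in a line that keeps it. The set holds 10 genes, taken by symbol from the 23227 symbols of the deposited comparison: the chemokines Cxcl1, Cxcl5, Cxcl12, Ccl2 and Ccl7, the cytokine Il6, the prostaglandin synthase Ptgs2, and the acute phase genes Saa3, Lcn2 and Lbp. All 10 symbols were in the table. Of these, 7 reached a mean of 20 normalised reads over both genotypes and were tested, and Il6, Saa3 and Lcn2 did not.

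The wild type (WT) line carries floxed, intact Dicer alleles (Dicer f/f), and the knockout (KO) line lacks Dicer (Dicer -/-). Both are immortalised monoclonal lines, grown in Alpha-MEM with 10% fetal bovine serum and lysed below confluence, with no inflammatory stimulus named in the labels. Each genotype is 1 clone, so genotype and clone cannot be told apart, and the labels call the same cells both adult mesenchymal stem cells and fibroblasts. PolyA RNA was sequenced in paired reads of 50 bases. The labels list 1 sample per genotype, but the deposited means resolve into 2 libraries per genotype, called here the deeper and the shallower library of each after their totals. Nothing says whether these libraries came from separate cultures, so their spread may be technical, and tests between them measure only that spread.

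The 4 libraries held 14135422 to 15718369 reads in genes, with 15370 to 15705 genes detected. Dicer1 had 804 and 943 normalised reads in the WT libraries and 573 and 557 in the KO libraries. With 1 value for the whole gene, these numbers do not show how much of the floxed part remained. Mesenchymal transcripts were abundant (Vim, the intermediate filament vimentin, at 44382 and 30576 as means of WT and KO), but Thy1 had 0 reads in every library and the stromal proteoglycan genes were low, with means of 15.6 and 14.1 for Dcn and 1 read in each library for Lum. Collagen genes differed between the lines: Col1a1 and Col1a2 were lower in KO, with ratios of 0.432 and 0.486, and Col3a1 was higher at 5.58 (adjusted p of 0.0121, 0.0419 and 0.000350 in the authors' deposited table, and 0.0685, 0.128 and 0.0169 in limma). Of 13 haematopoietic markers in the table, Itgax and Cd3e had 0 reads in all libraries and the pan-leukocyte gene Ptprc had at most 2 normalised reads. The most read were Cd68, with 20.2 and 33.6 normalised reads in WT and 29.4 and 28.9 in KO, and Csf1r, with at most 12.9. The haematopoietic list summed to 36.6 and 66.1 normalised reads in WT and 53.3 and 63.7 in KO. The endothelial list summed to 19.1 to 25.9 reads in all libraries. The epithelial and mesothelial list summed to 47.2 and 88.6 in WT against 198 and 471 in KO, mostly through Msln (mesothelin), while Epcam, Upk3b and Cldn4 had 0 reads. The part of these marker differences in the results below was not tested.

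Chemokines are small secreted proteins that guide the migration of leukocytes and progenitor cells by binding receptors coupled to G proteins. Stromal cells release CXC ligands that attract neutrophils, such as Cxcl1 and Cxcl5, and CC ligands that attract monocytes, such as Ccl2 and Ccl7, when interleukin 1, TNF or Toll-like receptors activate NF-kappaB. Il6 and Ptgs2 belong to the same early response, and their messenger RNAs, like that of Cxcl1, are short-lived through AU-rich elements in the 3' UTR. Acute phase proteins such as serum amyloid A, lipocalin 2 and lipopolysaccharide binding protein follow through NF-kappaB, C/EBP factors and STAT3. Cxcl12 is set apart from the rest as a homeostatic chemokine, made without a stimulus by marrow stromal cells to retain haematopoietic cells that carry Cxcr4. Dicer cuts microRNA precursors into mature microRNAs, which lower the stability and translation of messenger RNAs with matching sites.

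RefSeq promoter sequences (assembly GRCm38.p6, 250 bases before to 50 after each start) were given for 6 of the 10 genes. The promoters of Cxcl1, Ptgs2 and Saa3 are shown because these genes were higher in KO, and that of Il6 because it holds the same kinds of motif but the gene was hardly read. Capitals mark matches, on either strand, to the NF-kappaB consensus and to the C/EBP motif TTGCNNAA.
Cxcl1, chr5:90890995-90891294, plus strand: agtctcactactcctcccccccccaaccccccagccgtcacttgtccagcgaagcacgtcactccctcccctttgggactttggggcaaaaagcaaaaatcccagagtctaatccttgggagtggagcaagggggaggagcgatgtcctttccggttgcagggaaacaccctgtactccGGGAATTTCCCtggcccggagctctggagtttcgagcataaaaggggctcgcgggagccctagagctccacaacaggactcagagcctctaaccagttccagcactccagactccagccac
Ptgs2, chr1:150099781-150100080, plus strand: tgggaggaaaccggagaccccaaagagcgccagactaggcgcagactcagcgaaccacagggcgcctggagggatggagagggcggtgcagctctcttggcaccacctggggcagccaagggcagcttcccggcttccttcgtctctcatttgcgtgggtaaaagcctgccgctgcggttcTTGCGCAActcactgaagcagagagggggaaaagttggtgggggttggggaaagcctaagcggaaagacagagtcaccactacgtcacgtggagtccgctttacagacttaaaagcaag
Saa3, chr7:46715627-46715926, minus strand: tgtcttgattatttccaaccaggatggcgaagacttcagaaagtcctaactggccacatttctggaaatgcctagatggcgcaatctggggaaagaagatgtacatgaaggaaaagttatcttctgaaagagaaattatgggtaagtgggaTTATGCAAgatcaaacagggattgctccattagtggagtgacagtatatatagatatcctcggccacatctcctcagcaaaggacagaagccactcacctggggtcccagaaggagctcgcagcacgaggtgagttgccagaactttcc
Il6, chr5:30012864-30013163, plus strand: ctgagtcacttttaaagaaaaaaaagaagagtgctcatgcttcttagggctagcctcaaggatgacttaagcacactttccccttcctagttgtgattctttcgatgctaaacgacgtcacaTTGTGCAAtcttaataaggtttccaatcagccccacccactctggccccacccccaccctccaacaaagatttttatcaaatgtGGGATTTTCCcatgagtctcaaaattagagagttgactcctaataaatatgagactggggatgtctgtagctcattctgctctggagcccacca
Cxcl1 held 2 overlapping NF-kappaB matches in 1 near-palindromic stretch, starting 71 and 70 bases before the start, and no C/EBP match. Ptgs2 held a C/EBP match 69 bases before the start and Saa3 one 99 bases before it, with no NF-kappaB match in either window. Il6 held an NF-kappaB match 44 bases and a C/EBP match 128 bases before its start. Lcn2 held a C/EBP match 216 bases before the start, and Cxcl12 held neither motif. Among 32851 promoters of the same length, 8.46% held the NF-kappaB consensus and 10.8% the C/EBP motif. A match is a description of letters and not a measured site.

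The AU-rich nonamer TTATTTATT, a strong form of the element that destabilises messenger RNA, was found in the longest annotated 3' UTR of Cxcl1 and Ptgs2 and of no other gene of the set (GENCODE M21, GRCm38). It is in capitals in these windows.
Cxcl1, site 1: atttatgtatTTATTTATTccacaaagtgt
Cxcl1, site 2: agaatgtcagTTATTTATTgaaagtcgtct
Ptgs2: ctgaccatatTTATTTATTtatgtgaagaa
Of 11323 tested genes with a 3' UTR, 8.45% held the nonamer at least once and 1.85% at least 2 times. The shorter element ATTTA occurred 14 times in Ptgs2, 10 times in Il6 and 7 times in Cxcl1, whose UTR is 592 bases long (11.8 per kb). The median tested gene held 2 (1.35 per kb). Cxcl5 held 5, Cxcl12 4, Saa3 3, Ccl7 2, Ccl2 and Lbp 1 each, and Lcn2 none, which 29.1% of tested genes share. These counts are not matched for UTR length. The Saa3 UTR used here has 1956 bases, while the longest annotated Saa3 transcript has 2200, and the transcript expressed is not known.

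Of the 7 tested genes, 6 were higher in KO, none was lower, and Cxcl12 was neither. A call needed a ratio of mean normalised reads of 2 or more, or of 0.5 or less, together with a 95% Clopper-Pearson (exact) counting interval that left out 1. The interval covers counting error only. By the same rule 8.92% of all 11710 tested genes were higher and 8.56% lower. The median log2 ratio of the 7 tested genes was 1.65, beside -0.01 over all tested genes. In RNA of whole cultures, more expressing cells and more RNA per cell cannot be told apart. Genes that passed the minimum through KO reads alone, such as Lbp, had to differ. The 10 genes were also chosen with earlier results of these data known. The count of 6 and the median of 1.65 therefore describe the tested genes only. In the lists below, Il33, Ccl5, Bcl3 and Cxcr7 also passed through KO reads alone (WT means of 1.52, 5.62, 9.38 and 6.49). Il1rn, Il18 and Slc22a17 passed through WT reads alone (KO means of 14.4, 9.73 and 4.21). No WT library reached the lower KO library in 5 of the 7 tested genes, and in 7 of all 10. Over all tested genes that held for 30.4%, and the reverse order, with KO entirely below WT, for 28.8%.

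Tests that use the spread between libraries called fewer of these genes. The authors' deposited table gives an adjusted p under 0.1 to Cxcl1, Saa3 and Lbp, all higher in KO. That threshold was passed upwards by 3.91% and downwards by 3.96% of the 17303 genes with reads. limma, fitted on log2(normalised reads + 1) of all tested genes in the 4 libraries, gave an adjusted p under 0.05 to Lbp alone, against 4.61% of tested genes called higher and 4.14% called lower. Without adjustment, 4 of the 10 genes had a p under 0.05 in the authors' deposited table and 3 of the 7 tested genes in limma. In either direction, such a p was reached by 14.3% of the genes with reads and 19.4% of tested genes in the authors' deposited table, and by 29.0% of tested genes in limma.

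**Figure D1:**
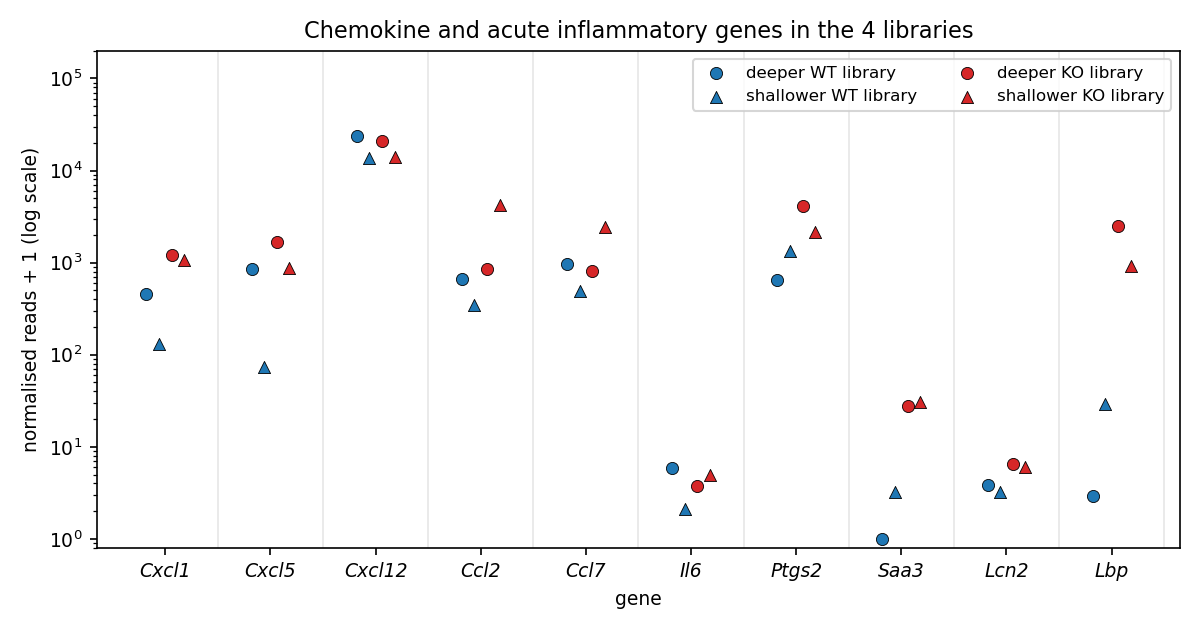
Normalised reads plus 1 (log scale) of the 10 genes in each of the 4 libraries, with WT in blue and KO in red, circles for the deeper and triangles for the shallower library. Red points sit above blue ones for Cxcl1, Cxcl5, Ccl2, Ptgs2, Saa3, Lcn2 and Lbp, narrowly so for Cxcl5, while Cxcl12 overlaps near the top of the scale and Il6 near its bottom.

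Cxcl1, a neutrophil attractant that acts through Cxcr2, had 459 normalised reads in the deeper and 130 in the shallower WT library. In KO it had 1205 and 1068. The genotypes did not overlap, and the spread lay in WT, where the libraries differed 3.53-fold against 1.13-fold in KO. The ratio of means was 3.86 (95% counting interval 3.53 to 4.23), with an adjusted p of 3.06e-05 in the authors' deposited table. limma gave a log2 change of 2.21 (SE 0.61) and an adjusted p of 0.0950, above its threshold. The lowest KO library was still 2.33-fold above the highest WT library.

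Cxcl5, a second neutrophil attractant of the same receptor and the same gene cluster, had 847 and 72.9 normalised reads in WT and 1690 and 879.7 in KO. The WT libraries differed 11.6-fold, and the shallower KO library was only 1.04-fold above the deeper WT library, so the groups lay side by side without overlapping. Its ratio was 2.79 (2.59 to 3.01). Neither test passed, with an adjusted p of 0.635 in the authors' deposited table and 0.278 in limma (log2 change 2.29, SE 1.19). Without the shallower WT library the ratio was 1.52, and without the deeper WT library it was 17.6. Without the deeper KO library it was 1.91, again under the fold of 2.

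Cxcl1 and Cxcl5 lie in 1 chemokine cluster, with Ppbp, Pf4, Cxcl3 and Cxcl15 between them and Cxcl2 beyond Cxcl1, in the order of the RefSeq gene table. The remaining cluster genes were hardly read. Ppbp, the precursor of a neutrophil-activating peptide, had 4.82 and 0 normalised reads in WT and 29.4 and 11.9 in KO. Cxcl3, another Cxcr2 ligand, had 0 and 2.24 in WT and 23.9 and 8.96 in KO. Cxcl2, a close relative of Cxcl1, had 0 reads in WT and 1 in each KO library. Pf4 and Cxcl15 did not exceed 1.84 normalised reads in any library. Thus 2 of the 7 ligands carried nearly all reads of the cluster in both genotypes. Beyond Cxcl2, the metabolic gene Mthfd2l had means of 246 and 243. Ereg, which encodes the growth factor epiregulin 4 places from Cxcl1 and was named after its values were seen, had 56.9 and 71.8 normalised reads in WT and 206 and 438 in KO. Reads of near-identical relatives could have been split between them, since the counting is not given in the sources used here. Cxcr2 itself had 15.4 and 21.3 reads in WT and 27.6 and 34.8 in KO, a ratio of 1.70 that was not called.

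Cxcl12, the homeostatic chemokine of marrow stroma, had the most reads of the set and was the only tested one without a call. It had 23504 and 13616 normalised reads in WT and 20823 and 13876 in KO. The genotypes overlapped fully, with the deeper library higher in each. The ratio was 0.935 (0.921 to 0.948), with an adjusted p of 1 in the authors' deposited table and 0.924 in limma (log2 change -0.07, SE 0.39). The direction followed the libraries used: the ratio was 1.27 without the deeper WT library and 1.12 without the shallower KO library. Per kb of the longest annotated transcript, genes can be compared only roughly, since the transcript expressed is not known. The WT means ran from Cxcl12 (3298) through Ccl7 (906), Ccl2 (619), Cxcl1 (309), Cxcl5 (292) and Ptgs2 (224) to Lbp (5.93). In KO, the mean of Ccl2 (3116 per kb) was close to that of Cxcl12 (3083), followed by Ccl7 (2026), Cxcl1 (1192), Cxcl5 (816), Ptgs2 (705) and Lbp (675). That closeness holds for the means only, since the KO libraries of Ccl2 had 854 and 4212 normalised reads. Genes next to each other in these orders had libraries that overlapped, apart from Cxcl12 and Lbp at the ends of the WT order and Cxcl1 above Cxcl5 in KO.

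The receptors of Cxcl12 differed between the lines although the ligand did not pass a test. Cxcr7, which binds Cxcl12 and removes it from the surroundings, had 2.89 and 10.1 normalised reads in WT and 122 and 230 in KO. The ratio was 27.1 (15.3 to 53.0), with an adjusted p of 0.000263 in the authors' deposited table and 0.0265 in limma. Cxcr4, the signalling receptor, had 13.5 and 26.9 reads in WT and 0 in both KO libraries. Against a floor of 3 reads over the KO libraries it was at least 14.1-fold lower, with an adjusted p of 0.00936 in the authors' deposited table. Its mean was too low for the other tests.

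Ccl2, the main monocyte attractant, had 664 and 342 normalised reads in WT and 854 and 4212 in KO. Only the shallower KO library was far above WT, and the deeper KO library was 1.29-fold above the deeper WT library. Its ratio of means was 5.04 (4.70 to 5.39), but neither test passed (adjusted p of 0.747 in the authors' deposited table and 0.194 in limma, with a log2 change of 1.99, SE 0.82). Without the shallower KO library the ratio was 1.70, under the fold of 2, and without the deeper one it was 8.37.

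Ccl7, which attracts monocytes through the same receptors and lies next to Ccl2, had 955 and 497 normalised reads in WT and 814 and 2432 in KO. The genotypes overlapped, since the deeper KO library was below the deeper WT library. Over the means the ratio was 2.24 (2.10 to 2.38), with adjusted p of 0.880 in the authors' deposited table and 0.332 in limma (log2 change 1.03, SE 0.61). Without the shallower KO library it was 1.12, and without the shallower WT library 1.70. The next genes of that cluster, Ccl11, Ccl12, Ccl8 and Ccl1, had at most 1 read in any library. Ccr2, the receptor of Ccl2 and Ccl7, had 0 reads in all 4 libraries.

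**Figure D2:**
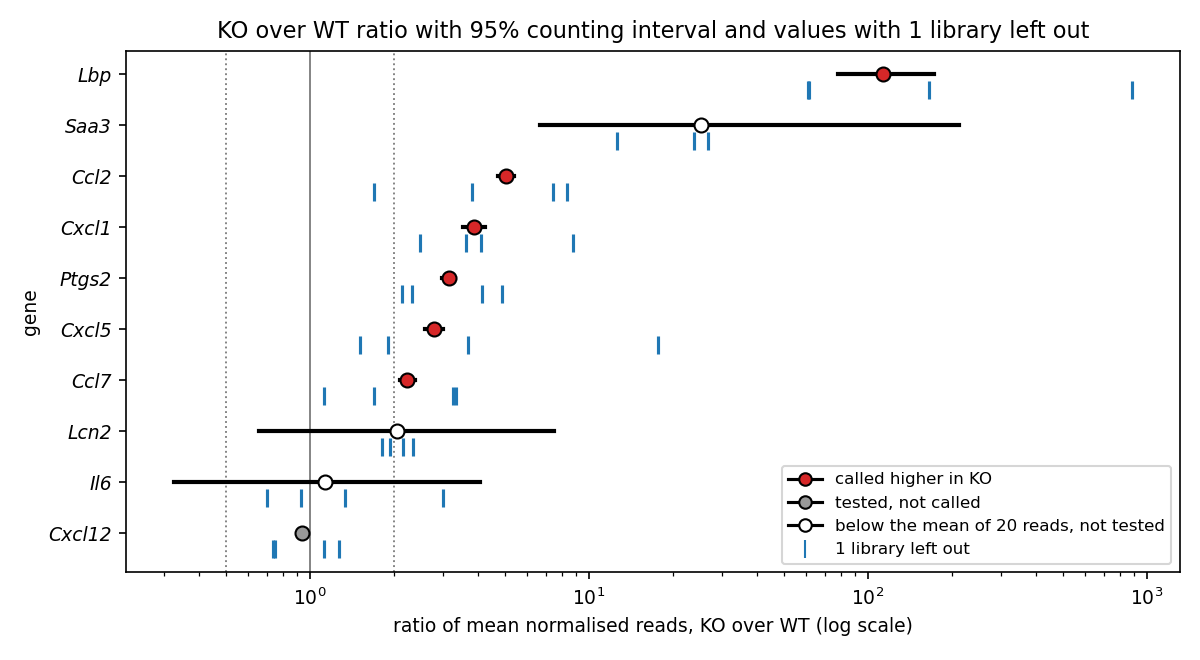
Ratio of mean normalised reads, KO over WT (log scale), with its 95% counting interval as a black bar, and blue ticks for the ratio with 1 library left out. Red circles were called higher, the grey one was tested and not called, and white ones were below the mean of 20 reads; the ticks of Cxcl5, Ccl2 and Ccl7 cross the fold of 2, while those of Cxcl1, Ptgs2 and Lbp stay above it.

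Il6, the cytokine that drives the acute phase response through Il6st and STAT3, was hardly read in either line, with 5 and 1 reads in the WT libraries and 3 and 4 in the KO libraries. Its ratio of 1.13 had an interval from 0.326 to 4.09, so a difference within those bounds was not detectable at this depth. Several receptor chains of the IL-6 family and the feedback gene Socs3 were read well. Il6ra, the ligand-binding chain, had 103 and 131 normalised reads in WT and 695 and 572 in KO, a ratio of 5.41 (adjusted p of 1.97e-07 in the authors' deposited table and 0.0142 in limma). Osmr, the oncostatin M receptor chain, had 828 and 1038 in WT and 2138 and 2155 in KO, a ratio of 2.30 (0.0147 and 0.0274). Socs3, the feedback inhibitor of Il6st signalling, had 503 and 288 in WT and 1673 and 1281 in KO, a ratio of 3.73 (2.50e-05 and 0.0360). In these 3 genes no KO library overlapped a WT library.

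Over the whole list of IL-6 family receptors and STAT3 signalling, 4 of 13 tested genes were higher (Il6ra, Osmr, Socs3 and Socs1) and none was lower. The list's median log2 ratio was 0.56. Among all tested genes 8.92% were higher and 8.56% lower. Stat3, the transcription factor of this arm, lay just under the fold of 2 (1162 and 1381 normalised reads in WT, 2833 and 2232 in KO, ratio 1.99), with an adjusted p of 0.0636 in the authors' deposited table. The shared receptor chain Il6st had a ratio of 1.74 and the kinase gene Jak1 0.613, and neither was called. Among 8 tested cytokine ligands other than Il6, 3 were higher and 3 lower, with a median log2 ratio of -0.23. Lif, which signals through the same Il6st chain, had 44.3 and 51.6 normalised reads in WT and 312 and 393 in KO, a ratio of 7.35 (adjusted p of 3.76e-08 in the authors' deposited table and 0.0138 in limma). Il33, an alarmin of the interleukin 1 family, rose from 1.93 and 1.12 to 197 and 113 (2.97e-07 and 0.0137). Il34, a ligand of the macrophage receptor Csf1r, rose from 50.1 and 66.1 to 390 and 543 (1.63e-08 and 0.0145). These 3 ligands were higher in both KO libraries. Clcf1, another Il6st ligand, was lower, with 387 and 562 in WT and 112 and 170 in KO, a ratio of 0.298 (0.00332 and 0.0448). Il1rn, the antagonist of interleukin 1, was lower by the ratio rule (2078 and 165 against 23.9 and 4.98), but neither test passed (0.425 in the authors' deposited table and 0.0769 in limma). Il18, an interleukin 1 relative, was lower by the ratio rule at 0.273, with 0.237 in the authors' deposited table. Tnf, Il1b, Csf2 and Csf3, the classical inducers and myeloid growth factors, had at most 3 reads in any library.

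Ptgs2 encodes the inducible cyclooxygenase, which makes the precursor of prostaglandins. It had 644 and 1352 normalised reads in WT and 4139 and 2136 in KO. KO lay above WT by at least 1.58-fold in any pair of libraries. Over the means the ratio was 3.14 (2.99 to 3.31), and with any 1 library left out it stayed between 2.14 and 4.87. Neither test passed, with an adjusted p of 0.238 in the authors' deposited table and 0.104 in limma (log2 change 1.67, SE 0.48).

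Of 9 tested genes of prostaglandin synthesis and reception around Ptgs2, 0 passed the ratio rule, limma or the authors' adjusted p. Over all tested genes the ratio rule called 8.92% higher and 8.56% lower, and limma 4.61% and 4.14%. The authors' threshold was passed by 3.91% and 3.96% of genes with reads, so 0 of 9 lies near these shares. Without adjustment, 2 of the 9 had a limma p under 0.05 and 1 such a p in the authors' deposited table. The shares over all tested genes were 29.0% and 19.4%. The median log2 ratio of the 9 was -0.26. Ptges, the inducible prostaglandin E synthase that works with Ptgs2, had a ratio of 1.65. Ptgs1, the constitutive cyclooxygenase, had 1.87, and Pla2g4a, which frees arachidonic acid and lies beside Ptgs2 in the genome, 1.06. The prostaglandin transporter Slco2a1 had 0.749 and the receptor Ptger4 0.838.

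Ptgs2 is shown as an example of microRNA sites, although other genes of the set matched as many families or more. Of the 19 seed families searched, 3 had matches in its 3' UTR: miR-26a and miR-16 with 2 each and miR-101a with 1. Capitals mark the seed (bases 2 to 8) in the mature RefSeq sequences and its complement of 7 bases in the UTR windows.
miR-26a-5p: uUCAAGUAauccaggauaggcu
miR-101a-3p: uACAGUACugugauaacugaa
miR-16-5p: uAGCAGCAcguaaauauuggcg
Ptgs2, miR-26a site 1: tgatatctttaTACTTGAatttcagatcat
Ptgs2, miR-26a site 2: catattttctcTACTTGAagttttacattc
Ptgs2, miR-101a site: tatcagctgagGTACTGTatattactgaat
Ptgs2, miR-16 site 1: ggtggagcccgTGCTGCTctgtcttaacta
Ptgs2, miR-16 site 2: gatgccagcatTGCTGCTcctcttagttcc
Such sites are common: 11.8% of tested genes with a 3' UTR held a miR-26a match, 11.75% a miR-101a match and 25.4% a miR-16 match. Cxcl12, with a UTR of 5188 bases, matched 10 families, while Cxcl1, with a UTR of 592 bases, matched none. Lbp matched 4 families, Ccl7 3, Il6 2, and Cxcl5, Ccl2 and Saa3 1 each (Saa3 in its longest annotated UTR of 1956 bases). Lcn2 matched none. MicroRNA levels were not measured in these libraries, a match is not a measured site, and a relation between matches and ratios was not tested.

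Saa3, the serum amyloid A gene that is active outside the liver, had 0 and 2 reads in the WT libraries and 29 and 30 in the KO libraries. The genotypes did not overlap. Its ratio of 25.2 had a wide interval (6.68 to 213), and the authors' deposited table gives an adjusted p of 0.00870. Its mean over both genotypes was under 20 normalised reads, so it was not tested by the ratio rule. With the minimum lowered to 5 it was called, and limma gave it an adjusted p of 0.0429. It passed that minimum through KO reads alone (means of 1.12 in WT and 28.3 in KO), so it had to differ there. The liver-type relatives beside it did not follow: Saa4 had means of 38.0 in WT and 31.3 in KO, and Saa1 and Saa2 had at most 10.1 normalised reads in any library.

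Lcn2, the iron-siderophore binding lipocalin, had 3 and 2 reads in WT and 6 and 5 in KO. Its ratio of 2.04 had an interval from 0.655 to 7.50, and no difference was detectable at this depth. Slc22a17, described as a receptor of lipocalin 2, had 153 and 77.4 normalised reads in WT and 6.44 and 1.99 in KO. Its ratio was 0.0365, with an adjusted p of 0.00119 in the authors' deposited table and 0.0281 in limma.

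Lbp, the secreted protein that hands bacterial lipopolysaccharide to Cd14, showed the largest ratio of the set. It had 2 and 25 reads in the WT libraries and 2707 and 923 in the KO libraries, or 1.93 and 28.0 against 2490.0 and 918 normalised reads. The lowest KO library was 32.8-fold above the highest WT library. Its ratio was 114 (78.1 to 173), with an adjusted p of 0.00321 in the authors' deposited table and 0.0332 in limma (log2 change 7.36, SE 1.19). Leaving out 1 library moved the ratio between 60.8 and 884, and the limma adjusted p rose to 0.155 without the deeper KO library and to 0.0929 without the shallower one. Bpi, its structural relative in the adjacent position, had 0 reads in every library. Alb, the liver albumin gene a few places from Cxcl5, was higher in the shallower library of both genotypes (2708 and 11235 in WT, 4083 and 8605 in KO), as was Saa4. Lbp was higher in the shallower WT library and in the deeper KO library. Alb was chosen after its values were seen, and the part of such liver transcripts in these results was not tested.

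Among 26 tested acute phase, complement and binding proteins, 3 were higher and 5 lower, beside 8.92% and 8.56% of all tested genes. The median log2 ratio of these 26 was -0.27. Several of them were higher in the shallower library of both genotypes, as Alb was, and others, such as Cp, were lower in it. Fga, a fibrinogen gene named after its values were seen, had 111 and 548 normalised reads in WT and 184 and 328 in KO. The part of such liver transcripts in the median was not tested. Cp, the copper carrier ceruloplasmin, had 1027 and 509 normalised reads in WT and 7501 and 5290 in KO, a ratio of 8.33 (adjusted p of 1.32e-07 in the authors' deposited table and 0.0195 in limma). Ptx3, a pentraxin that stromal cells make in response to interleukin 1, was lower, with 2445 and 1936 in WT and 150 and 206 in KO, a ratio of 0.0812 (1.76e-17 and 0.0114). The genotypes did not overlap in either gene. Timp1, an inhibitor of matrix metalloproteinases, and Slc39a14, a zinc and iron transporter, passed neither test, with ratios of 0.680 and 0.877.

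Differences between libraries of 1 genotype were large for most of these genes. Over all tested genes, the 2 WT libraries differed by a median of 0.26 on the log2 scale and the KO libraries by 0.32, and 8.73% and 8.27% were at least 2-fold apart. The libraries of Cxcl5 in WT were further apart than those of 99.8% of tested genes, as were those of Lbp in WT. The KO libraries of Ccl2 were further apart than those of 99.4% of tested genes, and those of Ccl7 than 97.8%. Cxcl1 was variable in WT (96.7%) but not in KO (29.7%).

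The direction of these gaps also differed from most genes. The shallower and deeper library differed in the same direction in both genotypes for 73.7% of tested genes, and Cxcl1, Cxcl5 and Cxcl12 did so too, with less in the shallower library of each. Ccl2 and Ccl7 were lower in the shallower WT library (log2 -0.96 and -0.94) and higher in the shallower KO library (2.30 and 1.58). Ptgs2 and Lbp went the other way, higher in the shallower WT library (1.07 and 3.31) and lower in the shallower KO library (-0.95 and -1.44). These are descriptions of 2 libraries a genotype, whose totals were not matched between genotypes.

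**Figure D3:**
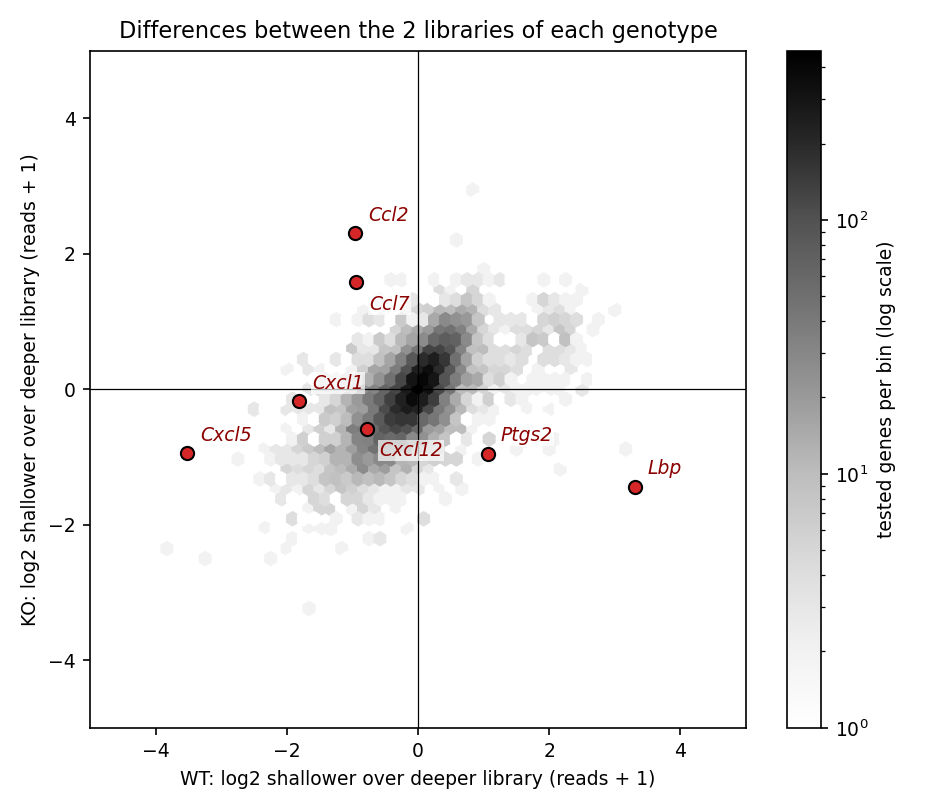
Log2 of the shallower over the deeper library (normalised reads plus 1) in WT on the x axis and in KO on the y axis, with grey bins counting all tested genes (log scale) and red points for the 7 tested genes of the set. Most genes sit near the origin or in the quadrants of equal sign; Ccl2 and Ccl7 lie in the upper left quadrant and Ptgs2 and Lbp in the lower right one.

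Other chemokine ligands were mostly low. Of 31 listed ligands 6 had no reads and 8 were tested, of which 4 were higher and 1 lower (median log2 ratio 1.02). By the same rule 8.92% of all tested genes were higher and 8.56% lower. Cx3cl1, the membrane-tethered ligand fractalkine, had 439 and 437 normalised reads in WT and 2292 and 4162 in KO, a ratio of 7.37 (adjusted p of 0.00892 in the authors' deposited table and 0.0174 in limma). Ccl9, a macrophage attractant, rose from 55.9 and 40.4 to 714 and 337 (0.0260 and 0.0224). Ccl5, a T cell attractant, rose from 6.75 and 4.48 to 80.0 and 110 (1.98e-06 and 0.0188). In these 3 ligands no KO library came near a WT library. Cxcl10, an interferon-induced ligand, had a ratio of 2.94 and an adjusted p of 0.0918 in the authors' deposited table, but 0.112 in limma. Cxcl14 was lower, with 291 and 247 in WT and 26.7 and 137 in KO, a ratio of 0.305 (0.0134 and 0.164). Ccl25, Cxcl16 and Ccl27a were not called, with ratios of 1.40, 1.29 and 1.12.

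Upstream of these genes, 29 receptors and adaptors of interleukin 1, TNF, interleukin 17 and Toll-like receptors were tested. Of the 29, 4 were called, all higher (median log2 ratio 0.30). For comparison, 8.92% of all tested genes were called higher and 8.56% lower. Tnfrsf1b, the second TNF receptor, had 696 and 585 normalised reads in WT and 2668 and 2205 in KO, a ratio of 3.80 (adjusted p of 8.62e-06 in the authors' deposited table and 0.0139 in limma). Tlr3, which senses double-stranded RNA, and the kinase genes Irak2 and Irak3 were higher by the ratio rule at 2.79, 2.15 and 2.15. The authors' deposited table passed Tlr3 and Irak2 (adjusted p 0.0470 and 0.0463) but not Irak3 (0.106), and limma passed Irak2 alone (0.0424). Irak1, a kinase of the same receptors, was lower at 0.511 by the authors' deposited table (adjusted p 0.0918). Tnfrsf1a, Map3k7 and Tab2, the most abundant that were not called, had ratios of 1.10, 0.790 and 0.774.

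Of 22 tested NF-kappaB and inflammatory transcription factor genes, 6 were higher and 1 lower (median log2 ratio 0.44). The shares over all tested genes were 8.92% and 8.56%. Relb, the transactivating subunit of the non-canonical arm, had 282 and 281 normalised reads in WT and 800 and 1295 in KO, a ratio of 3.72 (adjusted p of 0.0173 in the authors' deposited table and 0.0283 in limma). Bcl3, a nuclear IkappaB protein, had 8.68 and 10.1 in WT and 95.7 and 121 in KO, a ratio of 11.6 (5.81e-06 and 0.0181). Tnip1, an inhibitor that is itself a target of NF-kappaB, had a ratio of 2.54 (0.00696 and 0.0249). Cebpb, a C/EBP factor of the acute phase response, had 195 and 132 in WT and 560 and 382 in KO. Its ratio was 2.88, with an adjusted p of 0.0142 in the authors' deposited table and 0.0565 in limma. Cebpd, another C/EBP factor gene, named after its values were seen, had a ratio of 0.888 and was not called. Cebpa was lower by the ratio rule at 0.288, with an adjusted p of 0.774 in the authors' deposited table. Nfkb1, Nfkb2 and Chuk, the abundant core genes of the pathway, had ratios of 1.62, 1.54 and 0.868 and were not called.

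Of 17 tested regulators of AU-rich messenger RNA decay, 2 were higher and 1 lower by the ratio rule. These counts lie near the shares over all tested genes, 8.92% higher and 8.56% lower. Limma and the authors' adjusted p passed 0 of the 17, and their median log2 ratio was 0.04. Without adjustment, 2 had a limma p under 0.05 and 1 such a p in the authors' deposited table. Over all tested genes these shares were 29.0% and 19.4%. Zfp36, which encodes the decay factor tristetraprolin, had 560 and 197 normalised reads in WT and 1210 and 341 in KO, so that the libraries overlapped. Its ratio was 2.05, and that of its relative Zfp36l1 was 2.08. Zc3h12c, related to the Il6 nuclease regnase, was lower at 0.472.

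**Figure D4:**
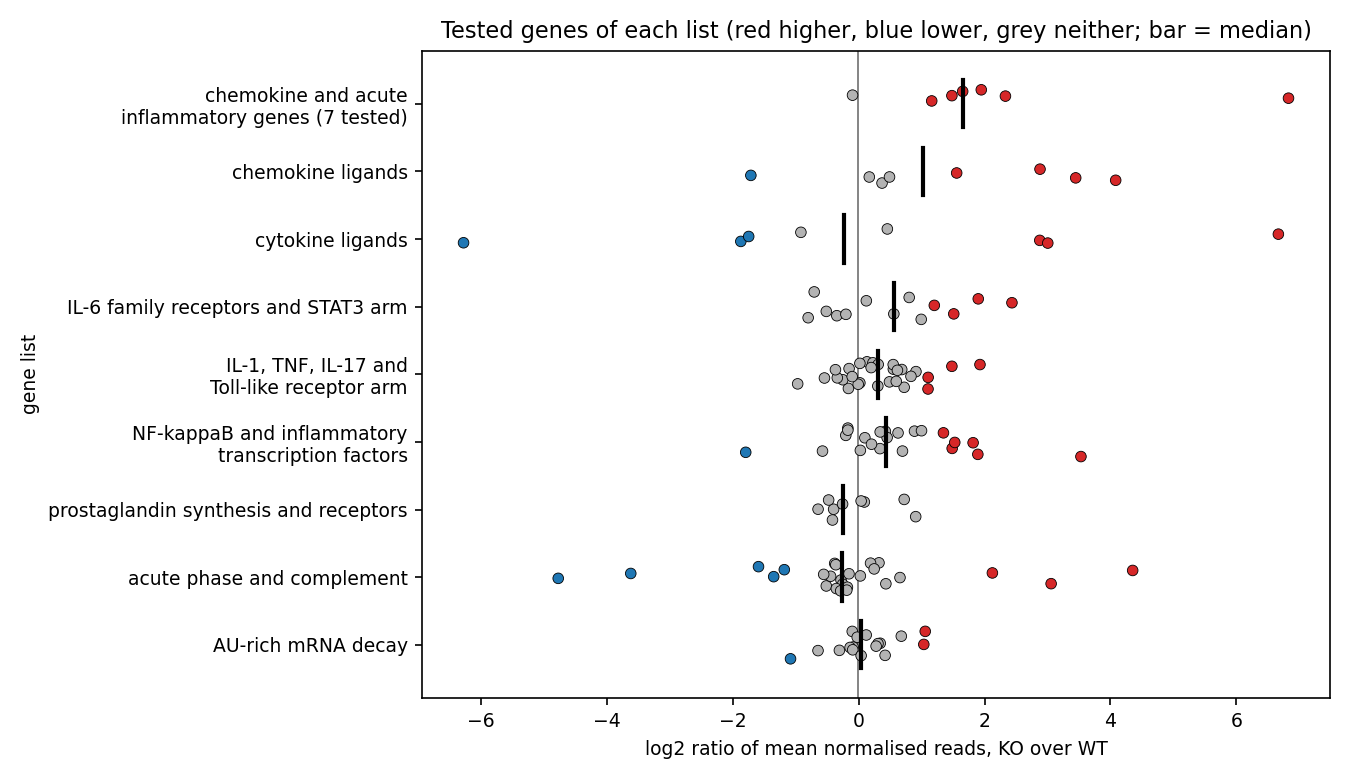
Log2 ratio of mean normalised reads, KO over WT, for each tested gene of the set and of 8 pathway lists, with genes called higher in red, lower in blue and neither in grey, and a black bar at the list's median. The medians of the set (1.65) and of the chemokine ligands (1.02) lie right of the grey line at the median of all tested genes. Those of prostaglandin synthesis (-0.26), acute phase proteins (-0.27) and cytokine ligands (-0.23) lie left of it, and those of the other lists to its right.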

How the data were processed

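PolyA RNA of 1 WT and 1 KO sample was analysed from the authors' deposited comparison. TopHat 1.4.0, DESeq 1.10.1 and the build mm9 appear in the submitters' processing notes, without roles. Counter and annotation: not given in the sources used here. Each deposited signal is a mean of reads divided by size factors. Per the file headers, condition A and B were read as WT and KO from the comparison's name, and every direction rests on that. The deposited ratio and log2 ratio are KO over WT. The authors' p-values were copied, not recomputed.

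For 100% of the 16386 WT and 16350 KO genes above 0, exactly 1 pair of whole reads gave the deposited mean, which returned 2 libraries per genotype. No reads were listed for 5924 symbols. A mean of at least 20 normalised reads kept 11710 genes. Ratios carry 95% Clopper-Pearson intervals; without molecular identifiers reads are not molecules, so intervals and floors (3 reads, 2.76 to 3.36 normalised reads a library) cover counting error only. limma 3.58.1 (R 4.3.3) used a mean-variance trend, a pseudocount of 1 and Benjamini-Hochberg adjustment over all tested genes, and understates changes of low genes. Both procedures were run on simulated counts, with counting noise alone for the interval and the same spread setting for every gene for limma. Gaps between libraries that differ from gene to gene, as seen here, were not simulated. Alternatives were other scalings, filters, folds, pseudocounts and each library left out. From each list were named up to 5 called genes that also passed the authors' test and the 3 most abundant others, by mean; Stat3, Irak1, Socs1, Irak3, Cebpa, Il18, Zfp36, Zfp36l1, Zc3h12c, Ptgs1, Pla2g4a, Ptger4, Tnf, Il1b, Csf2, Csf3, Ccr2 and the genes in the check of cell markers were added after their values were seen. The 10 genes and the lists were chosen with earlier results of these data known. UTRs (GENCODE M21) matched 96.7% of tested genes. Some genes of the lists are not reported here.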

Additional observations from a re-analysis of the deposited data

How the results depend on the processing

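Of the 10 genes, 6 were called higher under the authors' size factors, total-read scaling, TMM scaling and a fold of 1.5, 7 with a mean of at least 5 or no minimum (Saa3 joined), and 4 to 6 with 1 library left out. Cxcl5 (1.52) and Ccl7 (1.70) lost their calls without the shallower WT library, Cxcl5 (1.91) without the deeper KO library, and Ccl2 (1.70) and Ccl7 (1.12) without the shallower KO library. Cxcl12 reversed to 1.27 without the deeper WT library (limma adjusted p 0.749) and to 1.12 without the shallower KO library (0.806); over the libraries left out its ratio ran from 0.738 to 1.27 and its limma adjusted p from 0.691 to 0.806. Il6, on at most 7 reads a genotype, reversed to 0.699 without the shallower WT library and 0.929 without the shallower KO library, within a range of 0.699 to 3.01. No ratio could be given for Saa3 without the shallower WT library, since the other had 0 reads.

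limma called 1 of the 10 genes, 2 with a minimum of 5 (Saa3 joined), and 0 to 3 with 1 library left out: 3 without the deeper WT library, with Cxcl1 at 0.00719 and Cxcl5 at 0.00932, 2 without the shallower WT library, with Ptgs2 at 0.0466, and 0 without either KO library. With 1 library in a group, the lone library is assumed to vary like the others. Over all genes, the number lower was 1577 with no minimum beyond 1 read, where more genes are tested, and a fold of 1.5 gave 2030 higher and 2092 lower. No paired analysis was possible because the labels give no replicate numbers. Depth limits Il6 and Lcn2, whose intervals include 1. Saa3 passed the minimum of 5 through KO reads alone, so its calls there are no added support.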

Other observations

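Of 543 tested genes whose libraries differed at least 1.9-fold in both genotypes, 37 (6.81%) did so in opposite directions, and 4 of those 37 were Ccl2, Ccl7, Ptgs2 and Lbp. The fold of 1.9 was chosen after the values were seen, so this count is no test. It lies just under the gaps of Ccl2 and Ccl7 in WT (1.94-fold and 1.92-fold) and of Ptgs2 in KO (1.94-fold). Cxcl5 also passed it in both genotypes (11.6-fold in WT and 1.92-fold in KO), but in the same direction. The 37 also held the NF-kappaB inhibitor gene Nfkbie, with 137 and 60.5 normalised reads in WT and 198 and 499 in KO, the order shown by Ccl2 and Ccl7. Kng1, the kininogen gene, followed the order of Lbp and Ptgs2, with 86.8 and 376 in WT and 1677 and 740.3 in KO. Tgm2, a transglutaminase gene a few places from Lbp and chosen after its values were seen, had 99.3 and 207 normalised reads in WT and 4515 and 3895 in KO.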
